A study of Solenopsis invicta with 64 samples.

Results

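The comparison described here is between the brains of polygyne fire ant gynes with 1 copy of the Sb supergene variant and those with none: 8 SB/Sb brains against 8 SB/SB brains, chosen by the labelled tissue, social form and genotype. These 16 libraries are part of 64, which also cover 8 brains each of polygyne Sb/Sb and monogyne SB/SB gynes, and an ovary from every one of the 32 animals. All animals were Solenopsis invicta gynes, winged females labelled as reproductively mature and unmated. Per the labels, they were caught in the field from mound tops on mating flight days and frozen, and each brain library came from a single brain by Smart-seq2, a cDNA amplification method without molecular identifiers. The 16 brains share the polygyne social form, and nothing in the labels records a treatment.

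The red imported fire ant has a supergene, a stretch of the social chromosome in which inversions keep 2 variants, SB and Sb, from recombining with each other, so that its genes are inherited as a block. Monogyne colonies accept a single egg-laying queen of genotype SB/SB, whereas workers of polygyne colonies accept several queens, nearly all of them SB/Sb. Sb/Sb females do poorly as reproductives, and the non-recombining Sb variant has collected repeats and mutations. The comparison of SB/Sb with SB/SB brains therefore asks how brain expression differs between animals of 1 social form that do and do not carry Sb. Chromosome 16 of the assembly UNIL_Sinv_3.0 is the social chromosome. The gene table used here gives chromosomes and gene order but no product names, so genes are named by their LOC symbols, and a role is given only where the table lists a synonym.

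The SB/Sb brains held 10.9 to 23.8 M assigned reads (median 19.3 M) and the SB/SB brains 9.46 to 23.5 M (median 19.8 M). By exact permutation tests (two-sided, on group means), neither the totals, the genes detected, the share of counts in the 10 leading genes nor the share on chromosome 16 differed between the genotypes beyond the spread of the libraries (adjusted p = 0.973 for each of the 4). Chromosome 16 took 7.35 ± 0.778% of the counts in SB/Sb brains and 7.71 ± 0.350% in SB/SB brains (SD, n = 8 each; exact p = 0.272 before adjustment). Libraries are called by the animal code of their titles. The SB/Sb brain 30A stood apart, with 43.8% of its counts in 10 genes, and the brains 16C (SB/Sb), 1E and 16D (SB/SB) had the lowest correlations with the other brains. A fit without these 4 brains is described after the gene results. The labels' tissue could be checked only in part, because the table identified just 2 of the listed markers by synonym. The odorant-binding protein gene LOC105203994 stood at 1398 ± 595 CPM (counts per M assigned reads, scaled by TMM) in SB/Sb brains, against 1432 ± 391 CPM in SB/SB brains, and the ovarian vitellogenin receptor gene LOC105200757 at 4.64 ± 3.43 CPM in SB/Sb and 3.87 ± 2.66 CPM in SB/SB brains.

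One copy of Sb went with more transcript of 27 genes in the brain, and with less transcript of none that passed the test. Of 10704 genes tested by edgeR's quasi-likelihood test, these 27 had an adjusted p under 0.05, which is 0.252% of the genes. The test took its spread from all 32 brains; fitted with the 16 SB/Sb and SB/SB brains alone, 12 genes were called, all of them among the 27. At an unadjusted p under 0.05 there were 422 of the 10704 genes, 271 of them higher and 151 lower in SB/Sb. This is a smaller share than the 0.05 expected if no gene differed. The median log2 change of the called genes was 5.03 and the smallest was 1.39, while the median over all tested genes was -0.01. The 27 were called for their change in these same brains, so nothing is read from that contrast. Most of the called genes were transcripts of low abundance. Their median level in SB/Sb brains was 7.20 CPM, with a range of 0.584 to 70.8 CPM, against a median of 26.5 CPM over all tested genes. In SB/SB brains 19 of the 27 averaged under 1 CPM, and 796 of all tested genes (7.44%) did so. Counts were found in all 8 SB/Sb brains for 25 of the 27; LOC105207200 lacked them in 16C and LOC105206606 in 107A.

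The genotypes were separated library by library for most of these genes. In 20 of the 27, the lowest SB/Sb brain lay above the highest SB/SB brain. Such a separation was found for 21 of all tested genes (0.196%) with SB/Sb higher and for none with SB/Sb lower. The exception among the 21 was LOC105204208 on chromosome 3, at 9.38 ± 3.55 CPM in SB/Sb and 0.637 ± 0.937 CPM in SB/SB brains (log2 3.83 ± 1.00 SE), which did not pass the test (adjusted p = 0.157) and is named because its values were seen. The separation was thin for LOC105193825 and LOC105203932, whose lowest SB/Sb brains, at 0.0486 and 0.0521 CPM, were near the level of 1 count. The called genes that overlapped between genotypes were LOC105207200, LOC105203715, LOC105199833, LOC105206510, LOC105195797, LOC105206606 and LOC105199588. In bulk tissue, more cells that express a gene and more RNA per cell cannot be told apart.

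**Figure D1:**
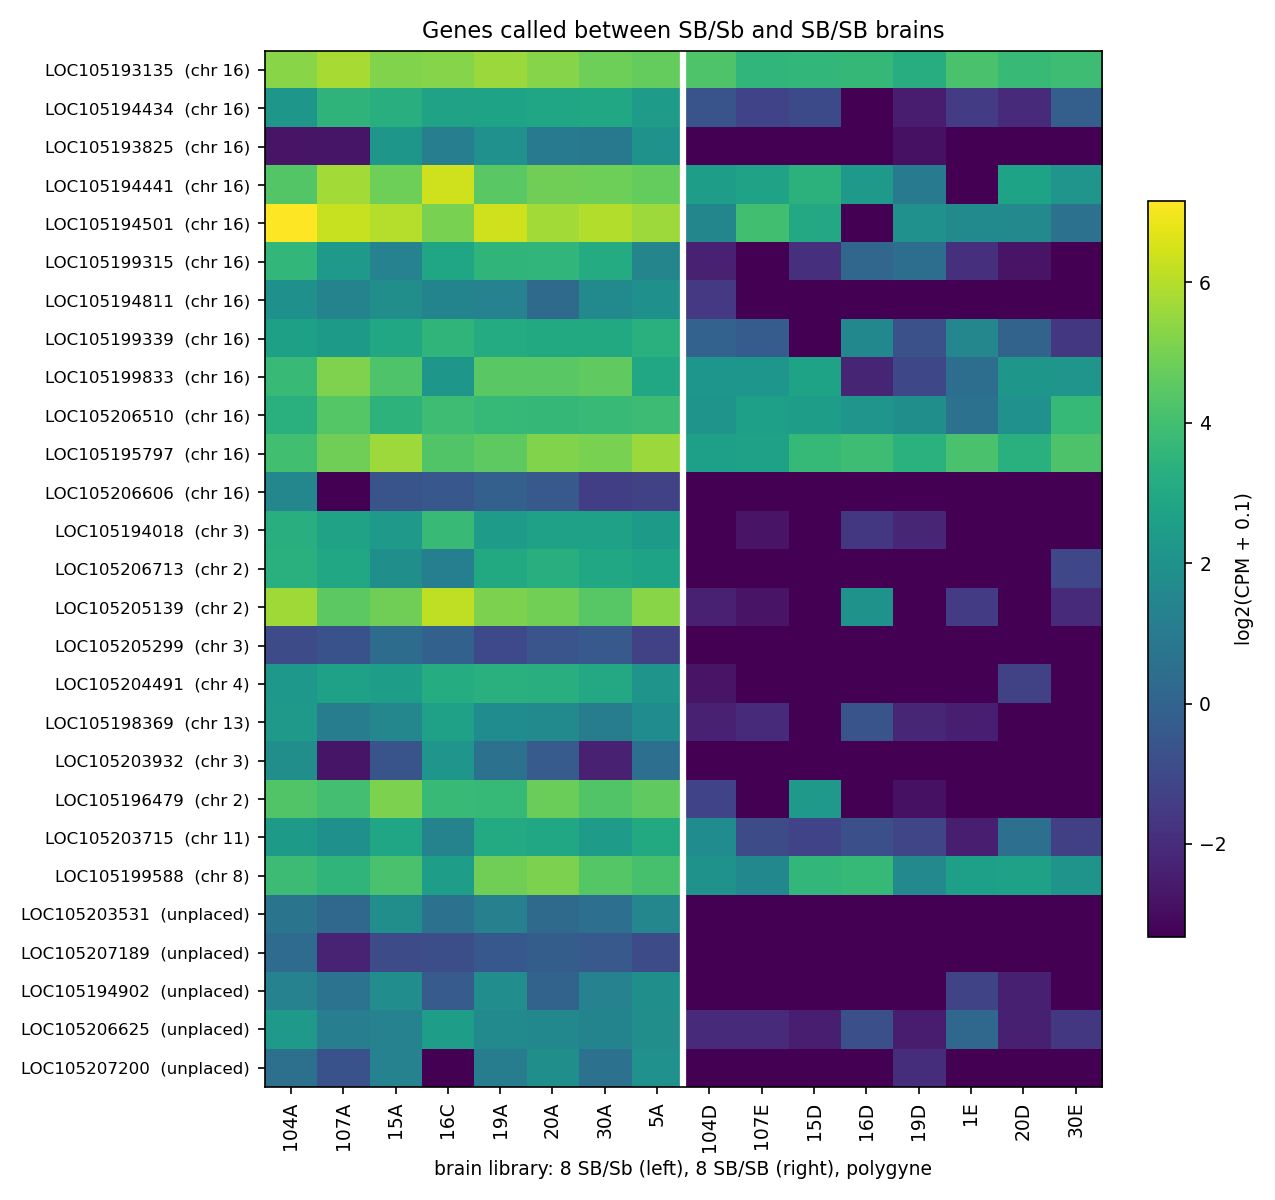
Level of the 27 called genes in each of the 16 brains as log2(CPM + 0.1), with the 8 SB/Sb brains left of the white line and the 8 SB/SB brains right of it; rows are grouped as chromosome 16, other chromosomes and unplaced, and ordered by adjusted p within these. Right of the line most rows lie at or near the bottom of the scale, with single raised cells such as 16D for LOC105205139 and 15D for LOC105196479.

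**Figure D2:**
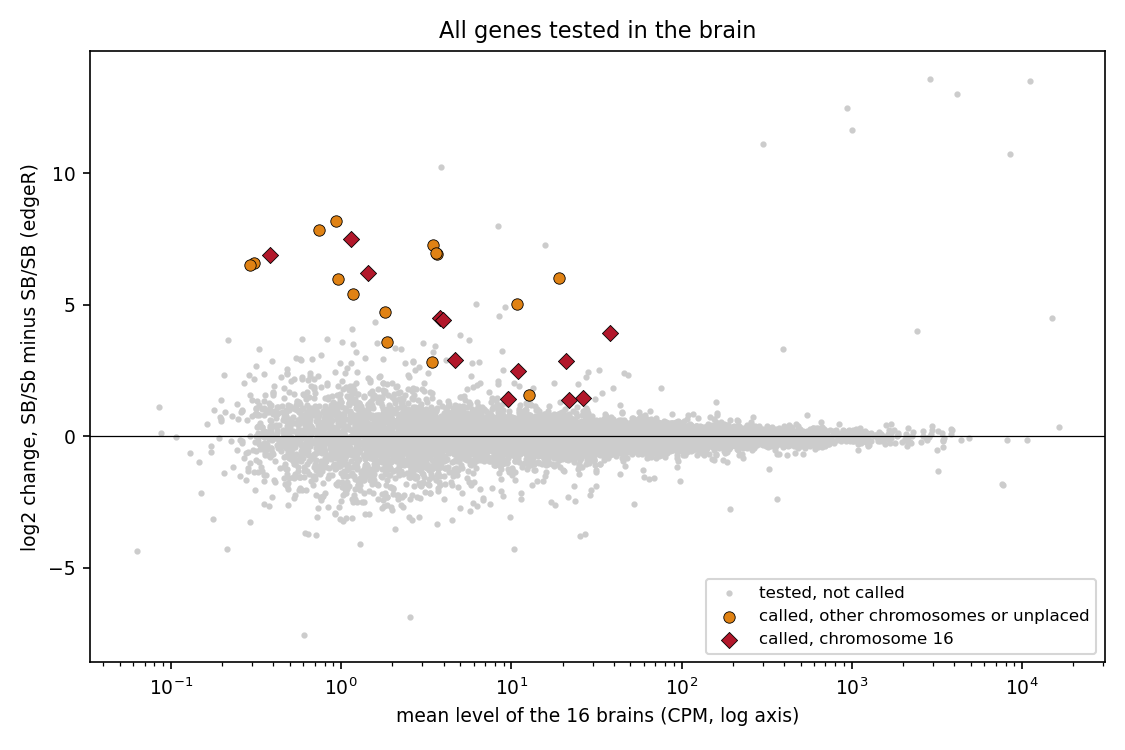
Log2 change of SB/Sb minus SB/SB against the mean level of the 16 brains (CPM, log axis) for the 10704 genes tested in the brain, with the 12 called chromosome 16 genes as red diamonds and the 15 other called genes as orange circles. The called genes lie above 0 at low and middle levels; for the 5 with no counts in SB/SB brains the plotted fitted value depends on the prior count and is not a measured fold.

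Several genes outside chromosome 16 were at or near 0 in SB/SB brains and measured in all 8 SB/Sb brains. LOC105194018 on chromosome 3 had the smallest p of all genes. Its lowest, median and highest levels were 4.98, 6.28 and 13.4 CPM in SB/Sb brains, whereas 5 SB/SB brains had no counts and 107E, 19D and 16D had 0.0479, 0.117 and 0.221 CPM. The groups were thus far apart (log2 change 6.94 ± 0.72 SE, adjusted p = 5.6e-07; 7.67 without 16D). LOC105204491 on chromosome 4 was alike in form, with 4.25, 7.10 and 10.1 CPM as lowest, median and highest in SB/Sb brains. In SB/SB brains it had counts only in 20D (0.316 CPM) and 104D (0.0466 CPM), and the log2 change was 6.97 ± 1.09 (adjusted p = 3.52e-04). Without 20D a single SB/SB count remained, and the ratio of the summed counts per scaled library size was 901 (95% exact interval 161 to 35630). LOC105198369 on chromosome 13 ranged from 2.03 to 6.32 CPM in SB/Sb brains and from 0 to 0.552 CPM in SB/SB brains, the highest again being 16D (log2 4.71 ± 0.79, adjusted p = 0.00118; 5.59 without 16D).

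A pair of neighbouring genes on chromosome 2, LOC105206713 and LOC105205139, were both called, and they overlap each other in the gene table. LOC105205139 had 21.9, 32.2 and 72.2 CPM as lowest, median and highest in SB/Sb brains, against 0 to 0.260 CPM in 7 SB/SB brains and 4.09 CPM in 16D. Without 16D the SB/SB mean was 0.0783 CPM instead of 0.579 CPM. The log2 change was 6.0 ± 0.82 (adjusted p = 4.47e-05), 9.01 without 16D and 9.42 without the 4 brains that stood apart. With all brains it was 3.89 by DESeq2 (adjusted p = 0.0149) and 8.97 by limma voom (adjusted p = 4.27e-09). LOC105206713 had 2.19, 7.51 and 10.1 CPM in SB/Sb brains in the same order, and in SB/SB brains counts in 30E alone (0.368 CPM). Its log2 change was 7.26 ± 0.96 (adjusted p = 3.34e-05). Without 30E no SB/SB count remained, and the gene was at least 321-fold higher in SB/Sb brains, against 3 counts over the other 7 SB/SB brains. The sources used here do not say whether the counting used strand, so how reads of overlapping genes were divided is unknown. The neighbour LOC105201357, a pseudogene in the table that also overlaps LOC105205139, stood at 0.203 CPM in SB/Sb and 0.478 CPM in SB/SB brains and was not called (adjusted p = 0.999).

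Elsewhere on chromosome 2, LOC105196479 had 12.9, 19.7 and 34.2 CPM as lowest, median and highest in SB/Sb brains. In SB/SB brains it was at 0 in 5 libraries, at 0.326 CPM in 104D, at 0.0389 CPM in 19D and at 5.05 CPM in 15D. The groups did not overlap (log2 5.03 ± 1.00, adjusted p = 0.0101), and without 15D the SB/SB mean was 0.0521 CPM instead of 0.677 CPM and the log2 change 8.35. DESeq2 did not call this gene (adjusted p = 0.257).

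For 5 called genes no SB/SB brain had a single count, so only lower bounds of the fold can be given, set against 3 counts over the whole SB/SB group (0.0206 CPM). LOC105203531, an unplaced gene, had 1.04 to 3.53 CPM in SB/Sb brains and was at least 90.2-fold higher there (adjusted p = 7.65e-06). The unplaced LOC105207189 ranged from 0.104 to 1.17 CPM in SB/Sb brains (at least 29.2-fold higher, adjusted p = 3.52e-04), and LOC105205299 on chromosome 3 from 0.317 to 1.20 CPM (at least 28.6-fold, adjusted p = 2.6e-04). These 3 had counts in each SB/Sb brain, so presence of counts alone separated the genotypes. LOC105203932 on chromosome 3 was more uneven, from 0.0521 CPM in 107A to 4.29 CPM in 16C (at least 71.2-fold, adjusted p = 0.00317), and was not called by limma voom (adjusted p = 0.105). LOC105206606 on chromosome 16 ranged from 0 in 107A to 2.82 CPM in 104A (at least 40.3-fold, adjusted p = 0.0369). It was not called by limma voom either (adjusted p = 0.177). Of these 5 genes, only LOC105203531 passed the count filter in the 16 brains alone. The others entered the main test through their counts in Sb/Sb or monogyne brains. Such bounds, and the intervals given here, cover counting error only.

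Chromosome 16 held 12 of the 27 called genes. That is 1.53% of the 786 genes tested on it, beside 10 of 8456 genes (0.118%) on the other chromosomes together and 5 of 1462 unplaced genes (0.342%). Most genes of the chromosome had small changes: the median log2 change of its tested genes was 0.00, with quartiles of -0.25 and 0.27, and that of genes on the other chromosomes was -0.01. A log2 change of more than 1 in either direction was found for 11.5% of tested chromosome 16 genes and 7.23% of those on other chromosomes. At an unadjusted p under 0.05, chromosome 16 had 48 higher and 18 lower genes, 8.40% of those tested on it. The other chromosomes had 185 higher and 116 lower genes, 3.56% of those tested on them.

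LOC105193135 had the smallest p on chromosome 16 and was well expressed in both genotypes. It had 25.5, 38.2 and 54.7 CPM as lowest, median and highest in SB/Sb brains, against 9.19, 13.2 and 19.0 CPM in SB/SB brains, with no overlap. The log2 change was 1.47 ± 0.20, a 2.77-fold difference (adjusted p = 3.34e-05). The neighbour LOC105193134, which overlaps it in the gene table, was not called, at 179 CPM in SB/Sb and 246 CPM in SB/SB brains (log2 -0.46 ± 0.23, adjusted p = 0.999).

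A run of 11 places in the gene order of chromosome 16, from place 943 to place 953 of 1233, held 4 called genes among 9 tested. The run starts and ends at called genes, so nothing is read from its count. LOC105194441 had 20.3, 28.9 and 85.7 CPM as lowest, median and highest in SB/Sb brains, against 0 to 10.7 CPM in SB/SB brains (log2 2.85 ± 0.53, adjusted p = 0.00415). The next gene in order, LOC105199833, overlaps it in the table; its levels were 4.53 to 35.0 CPM in SB/Sb and 0.110 to 6.63 CPM in SB/SB brains (log2 2.5 ± 0.54, adjusted p = 0.0235). In this gene the genotypes overlapped through 16C, the lowest SB/Sb brain, which was also the highest for LOC105194441. LOC105194434 lay at 4.61 to 11.1 CPM in SB/Sb and 0 to 0.810 CPM in SB/SB brains (log2 4.49 ± 0.62, adjusted p = 5.71e-05). LOC105194501, at the end of the run, was the most abundant called gene, with 33.3, 63.4 and 143 CPM as lowest, median and highest in SB/Sb brains, against 0, 3.01 and 15.8 CPM in SB/SB brains (log2 3.91 ± 0.73, adjusted p = 0.00524; 4.51 without 107E). The 5 uncalled genes between them did not share the pattern, with log2 changes of 0.27 for LOC105194453, -0.67 for LOC105194461, -0.16 for LOC105194469, -1.32 for LOC105194481 and 0.01 for LOC105194495, each at an adjusted p of 0.999.

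Many genes next to the called genes in the gene order were not tested, most of them because the counted genes do not include them. LOC105194018, LOC105205299 and LOC105204491 are among the called genes without a tested neighbour on either side. The 20 tested neighbours that were not called themselves had log2 changes of -1.17 to 1.64, with a median of -0.12. Of the 22 called genes with a place, 13 overlap another gene in the table, which limits how far their reads can be assigned to 1 gene.

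**Figure D3:**
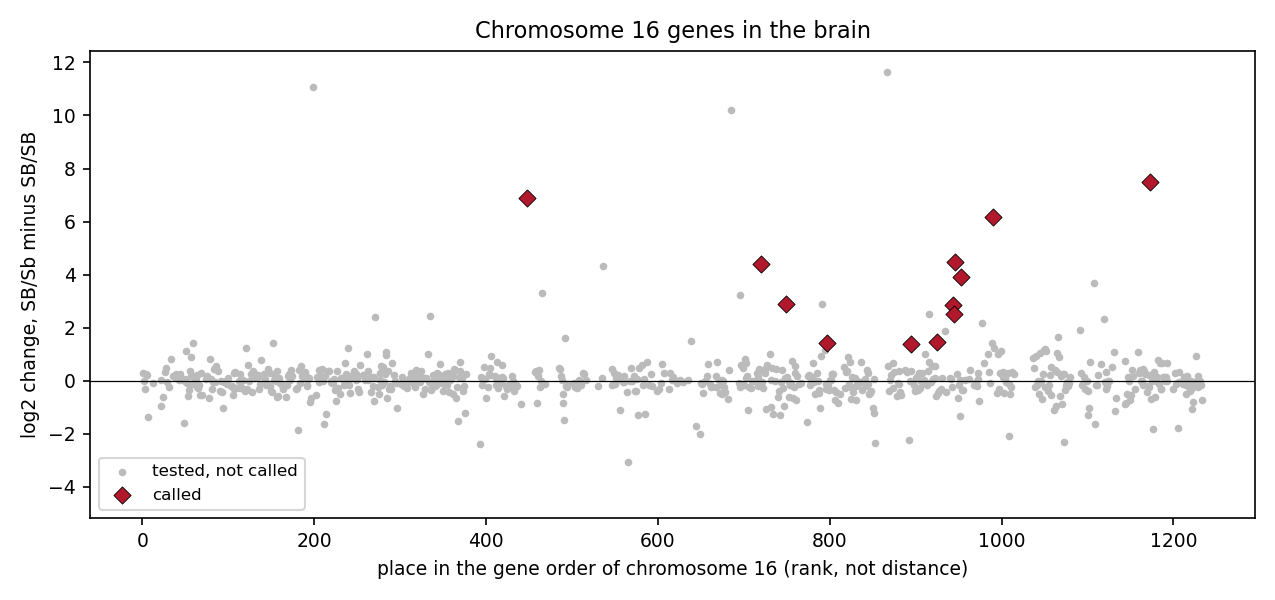
Log2 change of SB/Sb minus SB/SB in the brain for the 786 tested genes of chromosome 16, by place in the gene order of the assembly UNIL_Sinv_3.0 (a rank, not a distance); red diamonds are the 12 called genes. None of the 322 tested genes before place 447 was called, and 4 of the called genes fall between places 943 and 953.

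The other called genes of chromosome 16 lay at scattered places between 447 and 1173. LOC105199315 (place 720) had 2.39 to 12.2 CPM in SB/Sb brains against 0 to 1.29 CPM in SB/SB brains (log2 4.40 ± 0.83, adjusted p = 0.00568; 5.13 without 19D). LOC105199339 (place 749), the one long noncoding RNA gene among the 27, had 5.21 to 11.6 CPM in SB/Sb and 0 to 2.87 CPM in SB/SB brains (log2 2.88 ± 0.61, adjusted p = 0.0208). LOC105194811 (place 990) had 1.14 to 3.74 CPM in SB/Sb brains and counts in a single SB/SB brain, 104D, at 0.233 CPM (log2 6.19 ± 1.21, adjusted p = 0.00841); against 3 counts over the other 7 SB/SB brains, which had none, it was at least 113-fold higher. None of these 3 overlapped between genotypes. LOC105193825 (place 1173) separated the genotypes by the smallest margin: 6 SB/Sb brains had 1.77 to 4.60 CPM, but 107A and 104A had 0.0521 and 0.0486 CPM, and SB/SB brains held 1 count in all, in 19D (0.0389 CPM). The ratio of the summed counts, each taken per scaled library size, was 327 (95% exact interval 58.3 to 12965; adjusted p = 3.94e-04), and against 3 counts over the 7 SB/SB brains other than 19D it was at least 89.8-fold higher. The levels in 107A, 104A and 19D are all near that of 1 count, where the order of libraries follows their size.

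A smaller difference on a higher base was seen for LOC105206510 and LOC105195797 on chromosome 16 and for LOC105199588 on chromosome 8. LOC105206510 had 10.1 to 21.0 CPM in SB/Sb brains, against 1.39 to 12.7 CPM in SB/SB brains (log2 1.41 ± 0.30, adjusted p = 0.0235); 5 SB/Sb brains lay above the highest SB/SB brain, 30E. LOC105195797 had 15.7 to 49.1 CPM in SB/Sb and 5.91 to 18.8 CPM in SB/SB brains (log2 1.39 ± 0.31, adjusted p = 0.0312), overlapping through 104A. LOC105199588 had 5.85 to 33.9 CPM in SB/Sb and 2.88 to 12.9 CPM in SB/SB brains (log2 1.56 ± 0.36, adjusted p = 0.0478). Of the remaining called genes, LOC105203715 on chromosome 11 averaged 5.97 ± 2.15 CPM in SB/Sb and 0.832 ± 1.08 CPM in SB/SB brains (0.471 CPM without 104D). By limma voom LOC105203715 was not called (adjusted p = 0.145). The unplaced LOC105206625, LOC105194902 and LOC105207200 averaged 3.42 ± 1.33, 2.30 ± 1.16 and 1.90 ± 1.37 CPM in SB/Sb brains. In SB/SB brains LOC105206625 averaged 0.287 ± 0.334 CPM, LOC105194902 0.0546 ± 0.122 CPM and LOC105207200 0.0195 ± 0.0551 CPM. These 4 genes also moved with 1 SB/SB brain. The log2 change of LOC105203715 was 2.81 with and 3.62 without 104D, and that of LOC105206625 was 3.58 with and 4.21 without 1E. Without 1E, LOC105194902 kept 2 counts in SB/SB brains (ratio of summed counts per scaled library size 154, 95% exact interval 42.3 to 1277). LOC105207200 had SB/SB counts in 19D alone and was at least 79.9-fold higher in SB/Sb brains against 3 counts over the other 7.

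Leaving out 1 brain at a time kept 20 of the 27 calls in all 16 fits, and every one of the other 7 lost its call in some. The highest adjusted p of these 7 was 0.153, for LOC105199588, which was called only without 107A, 16C, 15D or 16D. LOC105206606 was called only without 107A, 16C, 30A or 5A, the highest adjusted p being 0.0832. LOC105195797 lost its call without any of the SB/SB brains 104D, 107E, 15D, 19D and 20D and any of the SB/Sb brains 15A, 20A, 30A and 5A, and LOC105206510 without 104D, 19D, 20D, 107A or 30A. LOC105199339 lost it without 104D, 107E, 19D or 20D, LOC105203715 without 107E, 15D, 19D or 30E, and LOC105199833 without 1E, 107A or 30A. The sign of the change was the same in all these fits. Leaving out the 4 brains that stood apart gave 28 calls, 23 of them among the 27; the others of the 27 were LOC105194811 (adjusted p = 0.0653), LOC105203715 (0.0984), LOC105206510 and LOC105206606 (0.152 each). In that fit the log2 change was 5.53 for LOC105198369, 6.79 for LOC105194902 (on 2 SB/SB counts), 4.60 for LOC105206625 and 3.78 for LOC105199339.

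The fit of the 16 SB/Sb and SB/SB brains alone tested 21 of the 27 and called 12. The 9 tested there without a call were LOC105194441 (adjusted p = 0.127), LOC105199315 (0.111), LOC105196479 (0.311), LOC105199339 (0.268), LOC105203715 (0.268), LOC105199833 (0.451), LOC105206510 (0.763), LOC105195797 (0.272) and LOC105199588 (0.712). The other 6, LOC105205299, LOC105207189, LOC105193825, LOC105203932, LOC105207200 and LOC105206606, did not pass the count filter in those 16 brains. They entered the main test only with the Sb/Sb and monogyne brains in the fit.

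A further 5 genes were called by both DESeq2 and limma voom but not by edgeR, and all 5 were higher in SB/Sb brains. LOC105206832 on chromosome 1 was the most abundant of them, at 234 ± 53.2 CPM in SB/Sb and 151 ± 28.0 CPM in SB/SB brains (edgeR log2 0.63 ± 0.15, adjusted p = 0.0954). LOC105193214 on chromosome 16 stood at 37.1 ± 11.5 CPM in SB/Sb and 18.4 ± 3.78 CPM in SB/SB brains (log2 1.01, adjusted p = 0.102). The unplaced LOC105199589 stood at 20.8 ± 7.41 CPM in SB/Sb and 5.87 ± 4.40 CPM in SB/SB brains (log2 1.83, adjusted p = 0.0555). The others were LOC105204203 (log2 1.38, adjusted p = 0.0844) and LOC105204208, given above. Just outside the threshold on chromosome 16 was LOC105205135, at 4.11 ± 2.89 CPM in SB/Sb and 0.397 ± 0.429 CPM in SB/SB brains (log2 3.32 ± 0.77, adjusted p = 0.0537). Also on chromosome 16, LOC105201520 had no counts in SB/SB brains and 0 to 20.0 CPM in SB/Sb brains, and did not pass the test (adjusted p = 0.117). These genes were chosen after their values were seen.

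No gene passed the test with lower expression in SB/Sb brains. Among the 8 lower genes with the smallest p, LOC105199336 and LOC105203076 lie on chromosome 16. LOC105199336 had 9.51, 16.8 and 30.9 CPM as lowest, median and highest in SB/Sb brains, against 19.0, 36.6 and 118 CPM in SB/SB brains, where 16D was the highest (log2 -1.29 ± 0.35, adjusted p = 0.233). LOC105203076 stood at 70.6 ± 11.5 CPM in SB/Sb and 101 ± 22.5 CPM in SB/SB brains (log2 -0.51 ± 0.15, adjusted p = 0.338). The unplaced LOC105201495 stood at 123 ± 53.7 CPM in SB/Sb and 195 ± 34.8 CPM in SB/SB brains (log2 -0.66 ± 0.21, adjusted p = 0.454). The genotypes overlapped for each of these 3; limma voom called LOC105203076 (adjusted p = 0.00336) and LOC105201495 (adjusted p = 0.0170). Several others were raised by 1 SB/SB brain. LOC105204479 had 37.7 CPM in the SB/SB brain 1E and at most 1.29 CPM in every other brain of either genotype. LOC105192919 had 54680 CPM in the SB/SB brain 15D. Its means were 3355 CPM in SB/Sb and 12160 CPM in SB/SB brains, and the SB/SB mean without 15D was 6086 CPM. LOC105195867 had no counts in SB/Sb brains and counts in 4 of 8 SB/SB brains, with 6.79 CPM in 15D. LOC105195653 averaged 19.6 ± 6.02 CPM in SB/Sb and 37.8 ± 26.8 CPM in SB/SB brains, and LOC105196602 averaged 7.18 ± 2.64 CPM in SB/Sb and 16.1 ± 10.3 CPM in SB/SB brains (adjusted p = 0.443 and 0.454).

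The genes that a synonym identifies did not pass the test. Of 9 such genes 8 were tested and 0 called, each with an adjusted p of 0.999. LOC105203994 and LOC105195107, odorant-binding protein genes whose products carry odour molecules, had log2 changes of -0.03 ± 0.23 and -0.03 ± 0.60. LOC105195102 (InR-2) and LOC105207962 (InR-1), insulin receptor genes, had -0.18 ± 0.69 and -0.77 ± 1.12, and LOC105197561 (GSTS1), a glutathione S-transferase gene, had -0.20 ± 0.21. The standard errors of the insulin receptor genes leave room for changes of more than 2-fold in either direction. The cytochrome P450 genes LOC105193893 (CYP4AB2) and LOC105195645 (CYP6A14) had log2 changes of -1.72 ± 1.17 and -0.23 ± 1.38, and the vitellogenin receptor gene LOC105200757 had 0.26 ± 0.83. LOC105199703, an allergen gene (Ag5) on chromosome 16, had no counts in any of these brains.

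Among the 5 most abundant genes of the 16 brains, LOC105195296, LOC105193375 and LOC105202373 were high through 30A, whereas LOC105197799 and LOC105195168 varied widely in both genotypes. LOC105197799 averaged 18400 ± 10090 CPM in SB/Sb and 14410 ± 9250 CPM in SB/SB brains (log2 0.35 ± 0.53), and LOC105195168 averaged 10080 ± 7232 CPM in SB/Sb and 11220 ± 8142 CPM in SB/SB brains. LOC105195296 reached 219600 CPM in 30A, while the other SB/Sb brains averaged 1351 CPM and the SB/SB brains 1261 CPM. Its log2 change was 4.51 with 30A and 0.09 without it. LOC105193375 and LOC105202373 reached 177500 and 134900 CPM in 30A and averaged 0.463 and 6.31 CPM in the other SB/Sb brains. None of the 5 was called.

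In brains with a second copy of Sb the mean was higher again for nearly all called genes, but only 1 of the 27 passed the test of that step. The polygyne Sb/Sb mean lay above the SB/Sb mean for 26 of the 27, the exception being LOC105203932 (1.34 ± 0.840 CPM in Sb/Sb, 1.49 ± 1.58 CPM in SB/Sb). For all 27, each of the 8 Sb/Sb brains lay above the highest SB/SB brain, which held for 61 of all tested genes (0.57%). The 27 were chosen as low in these same SB/SB brains, so nothing is read from that count. The SB/Sb mean was 53.7% of the Sb/Sb mean in the median, with a range of 32.3% to 111%. It lay between 40% and 60% for 15 genes, under 40% for 4 and over 60% for 8. No share over all tested genes is at hand for these counts or for the 26 of 27, so they only describe the 27. LOC105193135 averaged 13.9 CPM with no copy, 38.5 CPM with 1 and 74.6 ± 11.2 CPM with 2, and was the one gene of the 27 called between Sb/Sb and SB/Sb brains (log2 0.95, adjusted p = 0.0178). LOC105194501 averaged 4.71, 70.8 and 173 CPM in the same order and LOC105194018 0.0482, 7.22 and 13.5 CPM. LOC105194441 was nearer its Sb/Sb level with 1 copy, averaging 5.07, 36.6 and 44.1 CPM. The steps share the SB/Sb brains, so they are not independent of each other.

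**Figure D4:**
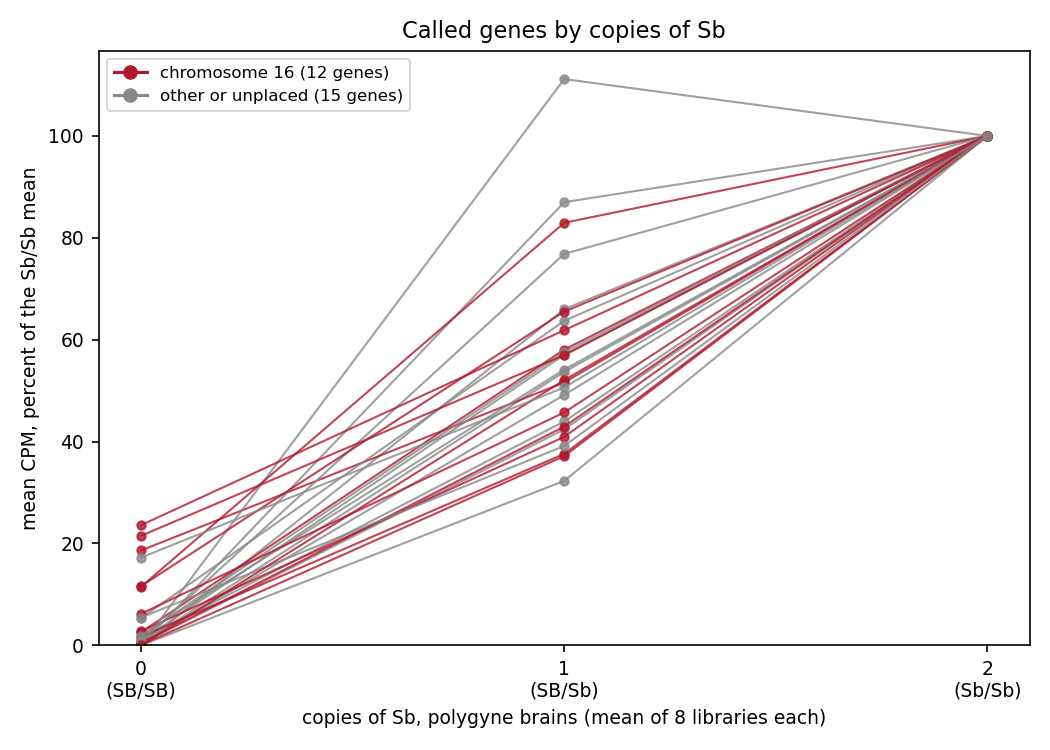
Mean level of the 27 called genes in polygyne brains with 0, 1 and 2 copies of Sb (8 libraries each), as percent of each gene's Sb/Sb mean; red lines are the 12 chromosome 16 genes and grey lines the other 15. At 1 copy the genes spread from 32.3% to 111%, with 15 of them between 40% and 60%.

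Some of the uncalled lower genes had polygyne means that fell with each copy of Sb. In polygyne brains LOC105199336 averaged 44.6 CPM with no copy, 18.3 CPM with 1 and 4.97 ± 2.82 CPM with 2 copies. LOC105201495 averaged 195, 123 and 43.4 ± 12.8 CPM in the same order. Both fell in Sb/Sb relative to SB/Sb brains, LOC105199336 by a log2 change of -1.87 (adjusted p = 0.00970) and LOC105201495 by -1.51 (adjusted p = 8.12e-05). LOC105203076 averaged 101, 70.6 and 52.7 ± 4.81 CPM, and its step to the second copy did not pass the test (adjusted p = 0.456). Monogyne SB/SB brains, which also lack Sb, averaged 16.8 ± 7.63 CPM for LOC105199336, near its SB/Sb level. For LOC105201495 and LOC105203076 they averaged 196 ± 12.1 and 118 ± 26.0 CPM.

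Monogyne SB/SB brains, which lack Sb like the polygyne SB/SB brains, were set beside them for the called genes. The monogyne mean lay below the SB/Sb mean for 26 of the 27, and all 8 monogyne brains lay below the lowest SB/Sb brain for 17, beside 23 of all tested genes (0.215%). The 27 were chosen as high in these same SB/Sb brains, so nothing is read from either count. None of the 27 was called when polygyne SB/SB brains were set against monogyne ones, although the monogyne mean was the higher of the 2 for 17 genes. Among these was LOC105207200, at 0.858 ± 0.869 CPM in monogyne and 0.0195 ± 0.0551 CPM in polygyne SB/SB brains. The exception to the 26 of 27 was LOC105203715, with 5.97 ± 2.15 CPM in SB/Sb brains and 6.42 ± 4.87 CPM in monogyne SB/SB brains. Of the 5 genes without counts in polygyne SB/SB brains, LOC105203932 and LOC105206606 had counts in monogyne SB/SB brains (0.876 ± 0.864 and 0.258 ± 0.445 CPM), and LOC105203531, LOC105205299 and LOC105207189 had none. The uncalled LOC105205135 was also high in monogyne SB/SB brains, at 4.33 ± 2.76 CPM.

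The ovaries of the same animals gave the same contrast in other libraries. One SB/SB ovary, of 104D, held too few counts and was left out, which leaves 8 SB/Sb ovaries to set against 7 of SB/SB. Of the 27 genes 23 were tested there and 15 were called, all of them higher in SB/Sb; over all genes 179 of 10797 were called (1.66%), 165 higher and 14 lower. The median log2 change of the 23 was 3.56, beside -0.01 over all genes tested in the ovary. LOC105205139 stood at 11 ± 3.57 CPM in SB/Sb ovaries and 0.0437 ± 0.0450 CPM in SB/SB ones (log2 7.84 ± 0.48, adjusted p = 3.41e-10), and LOC105196479 at 57.0 ± 14.9 CPM in SB/Sb and 1.78 ± 1.64 CPM in SB/SB ones (log2 4.98 ± 0.50, adjusted p = 1.1e-07). LOC105194018, LOC105204491, LOC105206625 and LOC105203531 had no counts in SB/SB ovaries and were at least 80.3-fold, 161-fold, 44.0-fold and 32.5-fold higher in SB/Sb ovaries. LOC105193825, whose separation was thin in the brain, was clear in the ovary, at 12.3 to 31 CPM in SB/Sb and 2.10 to 4.26 CPM in SB/SB ones (log2 2.59 ± 0.23, adjusted p = 1.97e-08). The 8 genes tested but not called in the ovary were LOC105194434, LOC105194441, LOC105194811, LOC105199339, LOC105203715, LOC105199833, LOC105206510 and LOC105195797. Of these 8, 7 lie on chromosome 16, which held 12 of the 27 called genes, all of them tested in the ovary. DESeq2 and limma voom both called LOC105194441 and LOC105195797 higher in SB/Sb ovaries, and voom called LOC105194811 and LOC105206510 lower.

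A test of the difference of the contrast between tissues, with the animal as a block, called 2 of 11262 genes (0.0178%), and both were among the 24 of the 27 that it covered. The 27 were chosen for their difference in the same brains, so nothing is read from both lying among them. The tissue fit left out both libraries of animal 104D, whose brain is the one SB/SB brain with counts of LOC105194811. The fitted difference of LOC105194811, 9.56 on the log2 scale (adjusted p = 1.15e-04), therefore sets SB/Sb brains against SB/SB brains with no counts, depends on the prior count and is not a measured size. With the brain and ovary of 104D included the difference was 7.14 and was also called, and it rests on 5 counts in SB/SB brains. It was an abundant ovary transcript in both genotypes, at 92.1 ± 26.7 CPM in SB/Sb and 157 ± 23.3 CPM in SB/SB ones (log2 -0.79 ± 0.25, adjusted p = 0.112), while in the brain it was found at 2.83 ± 0.875 CPM in SB/Sb and 0.0291 CPM in SB/SB animals, all of it from 104D. LOC105194434 differed between tissues by 4.94 ± 0.67 (adjusted p = 0.00390; 4.85 with 104D included), with 13.1 ± 4.68 CPM in SB/Sb and 13.2 ± 6.06 CPM in SB/SB ovaries. LOC105206510 just missed the threshold (difference 2.13, adjusted p = 0.0519), at 41.4 ± 8.30 CPM in SB/Sb and 61.6 ± 14.5 CPM in SB/SB ovaries. Because brains and ovaries were extracted with different kits per the labels, tissue and kit cannot be told apart in this test.

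**Figure D5:**
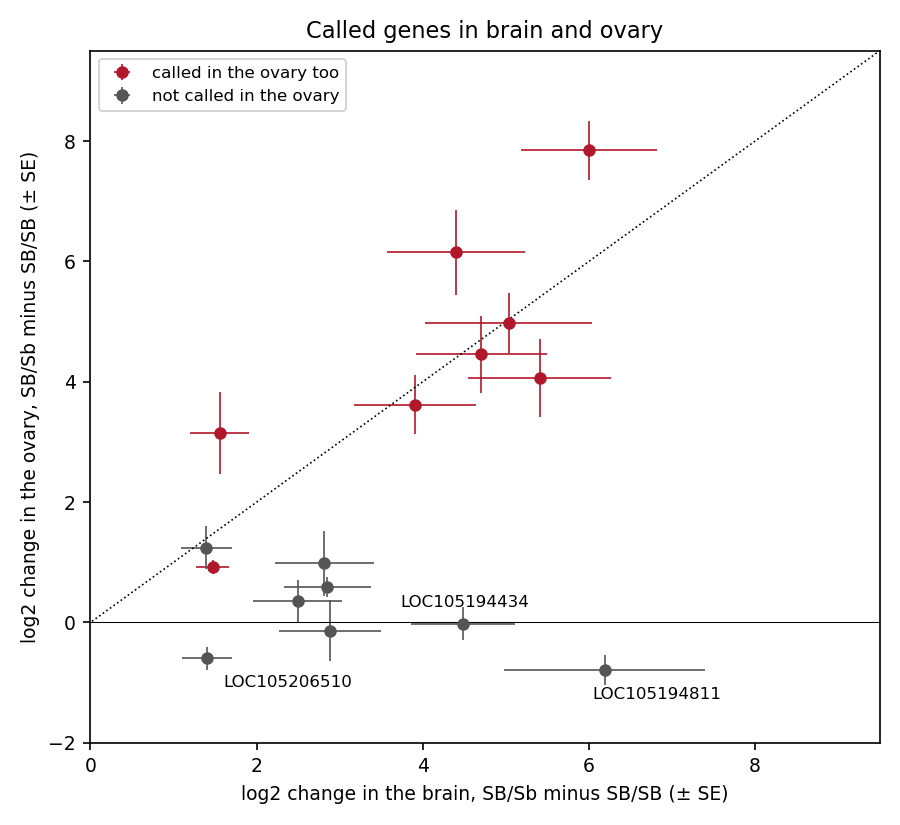
Log2 change of SB/Sb minus SB/SB in the ovary against that in the brain (both ± SE) for the 16 called genes that were tested in both tissues and had more than 3 counts in the SB/SB group of each; the dotted line marks equal change, and red points were called in the ovary too. LOC105194811, LOC105194434, LOC105206510 and LOC105199339 lie at or below 0 on the ovary axis while above 0 on the brain axis.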

How the data were processed

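RNA of single brains and ovaries was counted per gene. The submitters' processing notes name Trimmomatic 0.32 for trimming, STAR 2.5.3a for alignment and featureCounts for counting, but no genome build, annotation or strand setting. As deposited by the authors, the values are raw counts without normalization, for 15710 genes in each file, of which 198 are tRNA genes with 0.000177% of the counts. The gene table of UNIL_Sinv_3.0 matched 11895 of 15512 LOC symbols (94.8% of the counts).

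Libraries were grouped by labelled tissue, genotype and social form. The 32 brains were fitted together in edgeR 4.0.16 (R 4.3.3): TMM, filterByExpr (by group, minimum count 10), quasi-likelihood F-tests, Benjamini-Hochberg over all genes tested and a call at an adjusted p under 0.05. Every adjusted p of a gene is from this method unless DESeq2 1.42.0 or limma 3.58.1 (voom with quality weights) is named. The ovary of 104D (polygyne SB/SB) was left out of the ovary fit. The tissue difference left out both the brain and the ovary of 104D and was fitted on the other 30 of the 32 libraries of the polygyne SB/Sb and SB/SB animals, with the animal as a block. The scripts were tested on simulated data. Nothing in the labels says how the animals relate by colony, so p-values measure the spread between these animals.

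Named genes were all those called, the 8 lower genes with the smallest p, genes with a synonym, the 5 most abundant genes and the neighbours of called chromosome 16 genes; exceptions are stated. Lists by product name matched no gene beyond the synonyms. The members, lists and tests were chosen with earlier results of these data known. Other fits left out each brain in turn, changed tool, scaling, filter or samples, or added a covariate or block.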

Additional observations from a re-analysis of the deposited data

Results flagged for a closer look

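Of 62 groups of 8 libraries examined, 19 had a library far from the other 7; chance gives about 1 in 20. In SB/SB brains these were 30E for LOC105206713 (0.368 CPM) and LOC105206510 (12.7 CPM), 16D for LOC105205139 (4.09 CPM) and LOC105198369 (0.552 CPM), 20D for LOC105204491 (0.316 CPM), and 19D for LOC105193825 (0.0389 CPM) and LOC105207200 (0.156 CPM). They were also 1E for LOC105194902 (0.347 CPM) and LOC105206625 (1.04 CPM), 104D for LOC105194811 (0.233 CPM) and LOC105203715 (3.35 CPM), and 15D for LOC105196479 (5.05 CPM). Many of these SB/SB groups are otherwise at or near 0, where a few counts set a library apart. In SB/Sb brains, 104A was far above the others for LOC105194501 (143 CPM) and LOC105206606 (2.82 CPM), and 107A for LOC105206510 (21 CPM).

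The share of counts in 10 genes was 43.8% in the SB/Sb brain 30A and 17.1% in the SB/SB brain 15D, each far above the rest of its group. The share on chromosome 16 was 5.55% in 30A and 6.94% in the SB/SB brain 1E, each far below. The part of these in the gene results was not tested beyond the fits without 1E, 16C, 16D and 30A and those that leave out each brain.

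The contrast of SB/Sb with SB/SB differed between brain and ovary for LOC105194811, by 9.56 on the log2 scale, and for LOC105194434, by 4.94, both by a test of the difference itself. For LOC105194811 that fit held no counts in SB/SB brains, because animal 104D was left out of it, so its 9.56 depends on the prior count and is not a measured size; it was 7.14 with the libraries of 104D.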

How the results depend on the processing

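All 27 brain calls kept their direction in every fit that tested them. The main count of 27 (all higher) became 42 with DESeq2 (41 higher and 1 lower, LOC105204527, which had counts in 16D alone), 41 with limma voom (39 higher and 2 lower), 14 among genes averaging 50 counts or more, and 12 in a fit of only the 16 SB/Sb and SB/SB brains; 23 genes were called by edgeR, DESeq2 and voom alike. It was 26 with RLE size factors, 25 without a count filter, 29 with the 24 polygyne brains, 29 with the library total as a covariate, and 22 to 32 when 1 brain was left out. Chromosome 16 calls (12) became 4 with only the 16 brains and 8 to 15 when 1 brain was left out. Title numbers recur in both genotypes for 7 pairs of brains, with correlations of -0.09 to 0.47; 5 of the 7 were above 0.1, and 3 matched best with their own number. Because not every pair was above 0.1 and the labels do not say what a number marks, the numbers were not taken to pair the animals. With the number as a replicate block, the 24 polygyne brains gave 23 calls, not among them LOC105203932 (adjusted p = 0.0981), LOC105207200 (0.0528), LOC105203715 (0.0708), LOC105199833 (0.109), LOC105206510 (0.0981), LOC105206606 (0.205) and LOC105199588 (0.383); the 14 brains of shared numbers gave 5 calls with the block and 10 without it, of which 1 and 4 on chromosome 16 (added after the data were seen for the fit without it). In the ovary, 179 calls (165 higher, 14 lower) became 355 with DESeq2 (316 and 39); lower calls were 44 with voom and 48 with the ovary of 104D. The ovary change of LOC105194434 was -0.02 by edgeR without 104D, 0.018 with voom and 0.0067 with 104D, all near 0, and with 104D the tissue difference of LOC105194811 was 7.14 in place of 9.56, a value fitted with no counts in SB/SB brains. The cause of these moves was not tested, except that the fits on fewer libraries or with a stricter filter hold fewer samples or genes. Genes under about 1 CPM rest on few counts.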
